A study of Mus musculus with 36 samples.

Results

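Wild-type EpiSC were compared with wild-type embryonic stem cells (ESC) in 2i medium, in 12 of the 36 RNA-seq libraries of a mouse series. The 12 are the wild-type libraries titled EpiSC (6) and ESC2i (6), and no measured value was used to choose them. Both groups hold 2 replicates, labelled biological, of each of 3 lines named Bod1L, Mll2 and Setd1a after the gene a knockout in that line targets (Mll2 is the gene Kmt2b). The 2i group is labelled naive ESC, cultured with LIF and the inhibitors PD0325901, which blocks MEK, and CT99021, which blocks GSK3. The EpiSC group is labelled epiblast-like stem cells, cultured with Activin A and FGF2. Genotype, cell type and medium are the only facts the labels give for these cells: wild-type libraries name no tamoxifen, knockout libraries do, and neither the allele, the strain, the passage nor the use of feeder cells is given. No statement says that the cultures came from separate animals or clones, so the p-values below measure the spread between these cultures. The series also holds wild-type ESC in LIF and serum (FCS, 6 libraries), used here for levels and in fits over all 36 libraries, and 6 knockout libraries in each of the EpiSC and 2i conditions.

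Mouse pluripotent cells exist in a naive state, like the epiblast before implantation, and in a primed state, like the epiblast shortly before gastrulation. The naive state rests on LIF-STAT3 signalling and a set of transcription factors around Esrrb, Klf4, Klf2, Tfcp2l1 and Tbx3, and 2i medium holds it by blocking ERK signalling and relieving repression by TCF7L1. Primed cells depend on Activin and FGF, keep Pou5f1 and Sox2, lose most naive factors, and transcribe genes of the post-implantation epiblast such as Fgf5, Otx2 and Pou3f1. EpiSC lines are also known to vary among themselves in how many cells express early lineage genes.

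Totals ran from 28314024 to 40591108 counts in 2i and from 25200955 to 34400362 counts in EpiSC libraries. The first principal component of log2 CPM (58.5% of the variance) placed the 2i libraries between -135.7 and -111.0, 4 EpiSC libraries between 142.2 and 166.4, and both Setd1a EpiSC libraries at 40.6 and 69.8. The 12 libraries fall in separate ranges of library numbers in the file header: all EpiSC libraries carry later numbers and all wild-type 2i libraries earlier ones, so state and number range cannot be told apart here. In 2i Mll2 replicate 2, the 350 genes under 1000 bases stood at a median of 0.88 log2 units above their 2i level and the 5265 genes over 5000 bases at -0.27, against -0.05 to 0.04 in the other 2i libraries. EpiSC Setd1a replicate 2 stood at 0.29 and -0.09 for the same genes, against -0.10 to 0.05 in the other EpiSC libraries. Levels are in CPM, counts relative to the library total scaled by TMM, log2 fold changes are EpiSC over 2i with their standard error (SE), and "rose" and "fell" mean an edgeR quasi-likelihood adjusted p under 0.05. The Y-linked gene Ddx3y was at 0 CPM in Setd1a replicate 1 of both states. In Setd1a replicate 2 it was at 66.3 CPM (2i) and 21.0 CPM (EpiSC), so replicates 1 and 2 of this line differed within each state. In bulk RNA, fewer cells expressing a gene and less RNA per cell cannot be told apart.

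Of 20366 genes tested, 9228 were called (45.3%), 4804 higher in EpiSC (23.6%) and 4424 lower (21.7%). A change of at least 1 log2 unit was called for 3741 higher (18.4%) and 2902 lower genes (14.2%). The 6 and 6 libraries did not overlap for 2310 higher genes (11.3%) and 2138 lower genes (10.5%). The median log2 fold change of all genes was -0.02, so counts of gene groups below are read against these shares.

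The general pluripotency genes did not move as 1 group. Of 16 members, 4 rose (25.0%, against 23.6% of all genes), 7 fell (43.8%, against 21.7%) and 5 were not called. The median was -0.44. Pou5f1, which encodes the core factor OCT4, ran from 451 to 988 CPM (median 528) in 2i and from 218 to 1544 CPM (median 285) in EpiSC libraries. The EpiSC libraries lay on both sides of the 2i range, with Bod1L replicate 2 (1544 CPM) and Setd1a replicate 2 (1296 CPM) above it and the other 4 at 218 to 309 CPM, and no change was called (log2 fold change 0.01 ± 0.58, edgeR adjusted p = 0.995). Sox2, the partner of OCT4, ran from 352 to 708 CPM (median 394) in 2i and from 33.3 to 158 CPM (median 96.8) in EpiSC libraries. Every EpiSC library was below every 2i library, and Sox2 fell (-2.28 ± 0.37, edgeR adjusted p = 6.72e-04). Nanog, a homeobox factor of the naive network that primed cells keep at a lower level, ran from 854 to 1377 CPM (median 939) in 2i and from 26.9 to 395 CPM (median 178) in EpiSC libraries. It fell by 2.48 ± 0.45, and the lowest EpiSC library was Mll2 replicate 2.

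Both Lin28 genes, whose RNA-binding proteins block maturation of let-7 microRNAs, were higher in all 6 EpiSC libraries. Lin28a ran from 27.3 to 86.0 CPM (median 37.2) in 2i and from 311 to 548 CPM (median 402) in EpiSC libraries, a rise of 3.28 ± 0.25, and in FCS libraries it stood at 223 to 653 CPM (median 448). Lin28b ran from 5.82 to 30.2 CPM (median 13.3) in 2i and from 93.8 to 153 CPM (median 120) in EpiSC libraries. It rose by 3.22 ± 0.36. Utf1, a chromatin protein of the epiblast, ran from 10.9 to 25.6 CPM (median 14.2) in 2i and from 26.6 to 334 CPM (median 106) in EpiSC libraries and rose by 2.84 ± 0.48, with no overlap. Tdgf1, the Nodal co-receptor, was not called (0.00 ± 0.48). Gdf3, a TGF-beta ligand of pluripotent cells, fell by 3.27 ± 0.95, from 97.7 to 200 CPM (median 113) in 2i to 0.370 to 50.8 CPM (median 17.3) in EpiSC libraries. Dppa2, a DNA-binding protein that primes promoters in ESC, was near 0 in 4 EpiSC libraries (0 to 0.491 CPM) and at 59.7 and 15.9 CPM in the Setd1a ones, against 58.7 to 201 CPM (median 133) in 2i.

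The naive factors fell together. Of the 24 members of the naive list, 23 fell, 1 rose, and the median was -5.14. In 19 members every EpiSC library was below every 2i library. Summed over the list, 2i libraries held 5828 to 7435 CPM, the 4 Bod1L and Mll2 EpiSC libraries 227 to 405 CPM, and the Setd1a EpiSC libraries 1592 and 1013 CPM. Of the 24 members, 18 were higher in both Setd1a EpiSC libraries than in all 4 others. The same held for 19 of 27 germline, 7 of 16 general pluripotency and 2 of 22 formative and primed members. The share over all genes was not computed, so this count has no background to be read against.

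**Figure D1:**
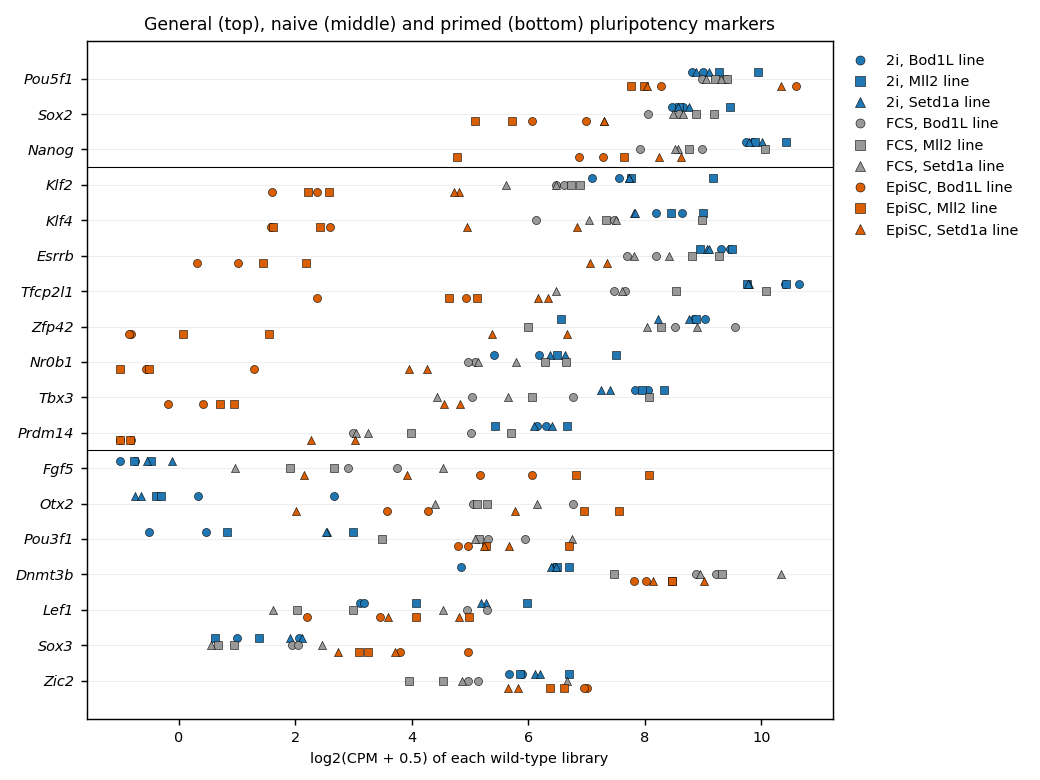
Level of 18 marker genes in each wild-type library, as log2(CPM + 0.5) on the horizontal axis. Blue points are 2i, grey FCS and orange EpiSC libraries, and symbols give the line. Naive markers lie far to the left in EpiSC libraries, with the Setd1a line nearer to 2i than the other lines, Fgf5 and Dnmt3b lie to the right, and Pou5f1, Lef1 and Zic2 overlap.

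Klf2, a Krüppel-like factor held up by MEK inhibition, ran from 136 to 579 CPM (median 212) in 2i and from 2.54 to 27.5 CPM (median 5.07) in EpiSC libraries. It fell by 4.95 ± 0.58 (edgeR adjusted p = 9.89e-05), and the 2i library far above the rest was Mll2 replicate 2. Klf4, a direct STAT3 target, ran from 224 to 513 CPM (median 320) in 2i and from 2.48 to 114 CPM (median 5.19) in EpiSC libraries. The upper end of the EpiSC range is the Setd1a line (114 and 30.3 CPM), while the other 4 libraries held 2.48 to 5.54 CPM, and the fall was 5.24 ± 1.00 in log2 size. Esrrb, the orphan nuclear receptor that the GSK3 inhibitor sustains, ran from 494 to 718 CPM (median 592) in 2i and from 0.737 to 163 CPM (median 3.14) in EpiSC libraries. It held 163 and 133 CPM in the Setd1a EpiSC libraries and 0.737 to 4.05 CPM in the 4 others.

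Tfcp2l1, a CP2-family factor downstream of LIF and of GSK3 inhibition, ran from 860 to 1597 CPM (median 1121) in 2i and from 4.67 to 80.0 CPM (median 32.3) in EpiSC libraries. It fell by 5.04 ± 0.58 with no overlap, and its lowest library was EpiSC Bod1L replicate 1. Tbx3, a T-box factor of the same network, ran from 151 to 321 CPM (median 237) in 2i and from 0.382 to 27.8 CPM (median 1.28) in EpiSC libraries. The Setd1a EpiSC libraries (22.9 and 27.8 CPM) again stood above the others (0.382 to 1.42 CPM). Prdm14, which restrains FGF signalling and DNA methyltransferase genes in naive cells, ran from 42.4 to 101 CPM (median 74.8) in 2i and from 0 to 7.65 CPM (median 0.0640) in EpiSC libraries, and it fell by 7.60 ± 1.26. Zfp42, the REX1 gene used as a naive reporter, ran from 94.1 to 526 CPM (median 448) in 2i and from 0.0546 to 101 CPM (median 1.49) in EpiSC libraries. Its groups overlapped, since Setd1a EpiSC replicate 1 (101 CPM) was above 2i Mll2 replicate 1 (94.1 CPM).

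The other naive members included nuclear, metabolic and surface genes. Tdh, the threonine dehydrogenase on which mouse ESC metabolism depends, ran from 316 to 577 CPM (median 378) in 2i. Its 4 Bod1L and Mll2 EpiSC libraries were at 0.185 to 2.33 CPM, EpiSC Setd1a replicate 2 was at 55.3 CPM and replicate 1 higher still, and Tdh fell by 7.18 ± 1.44. Pecam1, an adhesion molecule that marks naive cells, ran from 109 to 315 CPM (median 137) in 2i and from 0.466 to 50.7 CPM (median 1.12) in EpiSC libraries, and fell by 5.76 ± 0.75 (edgeR adjusted p = 1.78e-04). Nr0b1, an orphan receptor partner of OCT4, ran from 42.3 to 182 CPM (median 86.0) in 2i and from 0 to 18.6 CPM (median 1.07) in EpiSC libraries. Tcl1, a coactivator of AKT kinase, ran from 22.8 to 76.4 CPM (median 38.6) in 2i and from 0 to 13.5 CPM (median 0.0428) in EpiSC libraries, and both genes fell. Dppa5a, which has near-identical pseudogene copies that could share its reads, ran from 443 to 1192 CPM (median 587) in 2i and from 0.247 to 251 CPM (median 1.20) in EpiSC libraries. With 4 libraries in each state, calls were lost for Esrrb and Zfp42 without the Mll2 line (edgeR adjusted p = 0.0607 and 0.0729), for Dppa5a without the Bod1L or the Mll2 line (0.0840 and 0.0919) and for Tcl1 likewise (0.0857 and 0.0939). Fgf4, the ligand through which ESC start their own ERK signalling, ran from 133 to 287 CPM (median 209) in 2i and from 1.85 to 117 CPM (median 48.5) in EpiSC libraries. It fell by 2.07 ± 0.71 (edgeR adjusted p = 0.0324), a call lost when any 1 of 2i Mll2 replicate 2 (0.0518), 2i Setd1a replicate 1 (0.0525), EpiSC Mll2 replicate 1 (0.0805) or 2 (0.0772), or EpiSC Setd1a replicate 1 (0.0525) was left out (edgeR adjusted p values), and without EpiSC Bod1L replicate 2 the change was -3.19. The smallest fall was that of Zfp57, the zinc-finger protein that guards imprinted methylation (-1.31 ± 0.16), and the member that rose was Bmp4, a ligand on this list (from 0.397 to 8.41 CPM (median 2.12) in 2i and from 2.11 to 31.0 CPM (median 8.10) in EpiSC libraries). Its call was lost without 2i Mll2 replicate 1 (edgeR adjusted p = 0.0592) or 2 (0.0520) or 2i Setd1a replicate 1 (0.0564) and under the replicate block (0.0754).

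Of 22 formative and primed genes, 17 rose and none fell by edgeR (0 at an unadjusted p under 0.05, and 0 by DESeq2), with a median of 3.03 and no overlap for 13. The summed level ran from 315 to 642 CPM in 2i, from 1699 to 2764 CPM in EpiSC and from 759 to 2708 CPM in FCS libraries. The primed markers used to check the label divided: Fgf5, Otx2, Pou3f1, Dnmt3b and Sox3 rose, while Lef1 and Zic2 were not called.

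Fgf5, the ligand that marks post-implantation epiblast, ran from 0 to 0.418 CPM (median 0.137) in 2i and from 3.92 to 270 CPM (median 51.0) in EpiSC libraries. The 2i libraries were at or near 0, EpiSC Mll2 replicate 2 was the highest and the 2 Setd1a libraries (3.92 and 14.7 CPM) the lowest of the EpiSC group, and the rise was 8.38 ± 1.03. Otx2, the homeobox factor that steers the exit from the naive state, ran from 0.0916 to 5.86 CPM (median 0.284) in 2i and from 3.52 to 187 CPM (median 36.6) in EpiSC libraries. It rose by 6.45 ± 1.44 (edgeR adjusted p = 0.00410), with an overlap because 2i Bod1L replicate 1 (5.86 CPM) exceeded EpiSC Setd1a replicate 1 (3.52 CPM), and the call was lost without the Mll2 line (edgeR adjusted p = 0.0625). Pou3f1, the POU factor OCT6 that acts with OTX2, ran from 0.200 to 7.46 CPM (median 3.28) in 2i and from 27.3 to 103 CPM (median 37.6) in EpiSC libraries. It rose by 4.23 ± 0.61 with no overlap.

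The de novo methyltransferase Dnmt3b ran from 28.4 to 104 CPM (median 87.8) in 2i and from 225 to 517 CPM (median 317) in EpiSC libraries and rose by 2.08 ± 0.25 in a range that FCS libraries also reached (178 to 1295 CPM (median 546)). Sox4, an SRY-box factor, ran from 8.50 to 21.2 CPM (median 15.6) in 2i and from 75.4 to 240 CPM (median 165) in EpiSC libraries. It rose by 3.52 ± 0.32. Cldn6, a tight-junction claudin of the epiblast, ran from 1.91 to 6.63 CPM (median 3.49) in 2i and from 12.2 to 389 CPM (median 120) in EpiSC libraries, with Bod1L replicate 1 and Setd1a replicate 1 lowest among EpiSC libraries, and rose by 4.92 ± 0.85. Sox3, a neural-plate and epiblast factor, rose by 2.35 ± 0.41. Zic2, a zinc-finger factor active in both states, ran from 50.4 to 104 CPM (median 63.8) in 2i and from 49.5 to 128 CPM (median 89.6) in EpiSC libraries. Lef1, a TCF-family factor that the GSK3 inhibitor also drives, ran from 8.13 to 62.8 CPM (median 26.1) in 2i and from 4.09 to 31.0 CPM (median 14.0) in EpiSC libraries. Tcf15, a helix-loop-helix factor of cells poised to leave the naive state, stood at 23.8 and 24.6 CPM in the Setd1a EpiSC libraries, at 1.01 to 2.51 CPM in the 4 other EpiSC libraries, at 2.93 to 9.62 CPM (median 3.44) in 2i and at 14.7 to 30.8 CPM (median 18.0) in FCS.

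**Figure D2:**
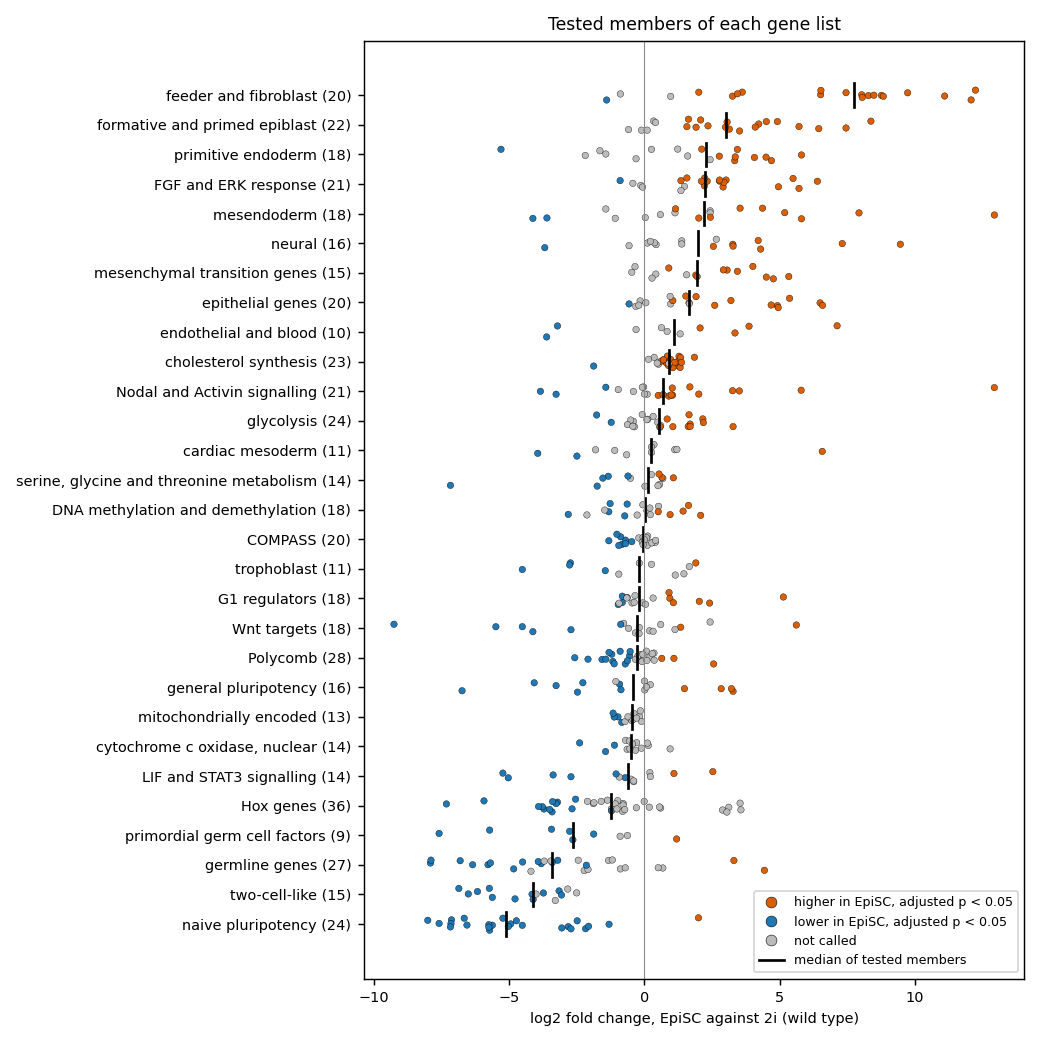
Log2 fold change (EpiSC over 2i, wild type) of each tested member of 29 gene lists, with the number tested in brackets. Orange members rose, blue members fell, grey members were not called, and black bars mark medians, which run from -5.14 for the naive list to 7.75 for the feeder and fibroblast list.

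Most ERK response genes were lower in 2i than in EpiSC. MEK is inhibited in 2i and FGF2 is supplied to EpiSC, and the part of either in these levels was not tested. The summed level was 592 to 733 CPM in 2i, 1187 to 1750 CPM in EpiSC and 749 to 1521 CPM in FCS libraries. Of 21 members, 15 rose and 1 fell, with a median of 2.23 and no overlap for 12. Dusp6, the phosphatase that ERK induces and that in turn inactivates ERK, ran from 1.77 to 7.87 CPM (median 3.75) in 2i and from 103 to 293 CPM (median 173) in EpiSC libraries. All EpiSC libraries were above 100 CPM and all 2i libraries under 8 CPM, and the rise was 5.72 ± 0.41 (edgeR adjusted p = 8.77e-06). Egr1, an immediate-early zinc-finger factor, ran from 0.154 to 0.696 CPM (median 0.590) in 2i and from 18.8 to 77.5 CPM (median 35.9) in EpiSC libraries. It rose by 6.40 ± 0.54. Dusp4, a nuclear phosphatase of ERK, ran from 1.02 to 3.73 CPM (median 1.48) in 2i and from 25.7 to 247 CPM (median 69.2) in EpiSC libraries. It rose by 5.50 ± 0.61.

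Among upstream and feedback members, Fgfr1, the main FGF receptor of the epiblast, ran from 67.1 to 135 CPM (median 98.0) in 2i and from 149 to 352 CPM (median 266) in EpiSC libraries. It rose by 1.35 ± 0.16. Spry4, a Sprouty inhibitor of the receptor pathway, ran from 0.0696 to 6.69 CPM (median 2.18) in 2i and from 16.6 to 133 CPM (median 55.2) in EpiSC libraries and rose by 4.96 ± 0.96, while its relative Spry2 was not called (-0.14 ± 0.38). Etv4 and Etv5 are ETS factors downstream of FGF. Etv4 ran from 6.66 to 64.2 CPM (median 25.3) in 2i and from 32.6 to 143 CPM (median 61.1) in EpiSC libraries and rose by 1.57 ± 0.59 (edgeR adjusted p = 0.0471). Each of 8 libraries ended that call when left out, namely 2i Bod1L replicate 1 and both 2i Mll2 and 2i Setd1a replicates, EpiSC Bod1L replicate 2, EpiSC Mll2 replicate 2 and EpiSC Setd1a replicate 1 (log2 fold changes 1.14 to 1.71). Etv5 fell by 0.90 ± 0.24, with 161 to 269 CPM (median 246) in 2i and 70.4 to 210 CPM (median 101) in EpiSC libraries. Myc, the growth factor-induced transcription factor, ran from 1.65 to 10.4 CPM (median 3.65) in 2i and from 13.1 to 49.5 CPM (median 25.8) in EpiSC libraries. It rose by 2.94 ± 0.47.

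LIF is in 2i medium and is not named for EpiSC medium, and its part in the levels that follow was not tested. Of 14 LIF and STAT3 members, 6 fell and 2 rose, with a median of -0.60, and Klf4, Tfcp2l1 and Gbx2 among the falls are naive list members too. Bcl3, an IκB-family cofactor induced by STAT3, ran from 32.7 to 82.3 CPM (median 51.2) in 2i and from 2.59 to 12.1 CPM (median 4.60) in EpiSC libraries. All EpiSC libraries were below all 2i libraries, a fall of 3.38 ± 0.39. Junb, an AP-1 subunit, ran from 1.09 to 13.3 CPM (median 5.02) in 2i and from 8.88 to 47.9 CPM (median 32.7) in EpiSC libraries. It rose by 2.53 ± 0.55. Jak2, a kinase of cytokine receptors, rose by 1.09 ± 0.29.

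Wnt target genes, read with GSK3 inhibited in 2i and not named as inhibited in EpiSC, also divided. Of 18 members, 6 fell and 2 rose, with a median of -0.26, and the rises numbered 1 when 2i Bod1L replicate 2, 2i Mll2 replicate 2, EpiSC Bod1L replicate 1 or EpiSC Mll2 replicate 2 was left out. Cdx1, a caudal homeobox gene directly activated by beta-catenin, ran from 93.5 to 362 CPM (median 180) in 2i and from 0 to 1.31 CPM (median 0.150) in EpiSC libraries. It fell by 9.27 ± 0.92, and FCS libraries held 0.156 to 1.65 CPM (median 0.536). The part of GSK3 inhibition in these levels was not tested. Axin2, the feedback scaffold of the pathway, ran from 62.0 to 150 CPM (median 98.4) in 2i and from 6.58 to 32.6 CPM (median 14.1) in EpiSC libraries. It fell by 2.72 ± 0.37. Notum, a secreted Wnt deacylase, ran from 40.1 to 125 CPM (median 87.2) in 2i and from 0.300 to 4.83 CPM (median 1.48) in EpiSC libraries. It fell by 5.50 ± 0.77. Sp5, a feedback repressor, fell by 4.13 ± 0.82, from 19.4 to 116 CPM (median 74.7) in 2i to 0.461 to 2.65 CPM in 5 EpiSC libraries and 33.0 CPM in EpiSC Mll2 replicate 2.

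In the Nodal and Activin list, 12 of 21 tested members rose and 3 fell, with a median of 0.69. The ligand Nodal was not called (from 41.5 to 100 CPM (median 70.5) in 2i and from 21.8 to 160 CPM (median 61.2) in EpiSC libraries), while its feedback antagonist Lefty1 ran from 8.66 to 45.6 CPM (median 28.9) in 2i and from 56.9 to 529 CPM (median 305) in EpiSC libraries. It rose by 3.51 ± 0.53. Lefty2 was not called (-0.41 ± 0.60, or called at -1.36 without the Setd1a line, edgeR adjusted p = 0.0466), with 310 and 117 CPM in the Setd1a EpiSC libraries and 17.4 to 47.2 CPM in the 4 others. The transducer Smad3 ran from 10.4 to 43.9 CPM (median 21.0) in 2i and from 43.4 to 115 CPM (median 79.0) in EpiSC libraries. It rose by 1.68 ± 0.29. Skil, the SnoN repressor that Activin induces, rose by 0.99 ± 0.23. Pcsk6, a convertase that processes Nodal, went the other way, from 72.6 to 142 CPM (median 103) to 3.79 to 13.8 CPM (median 6.24), a fall of 3.85 ± 0.22 (edgeR adjusted p = 3.84e-06).

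The summed level of mesendoderm genes was highest in the Mll2 EpiSC libraries, and none of the 18 mesendoderm genes was called by edgeR for a line difference in the state effect (7 at an unadjusted p under 0.05, 4 by DESeq2). Of 18 tested mesendoderm genes, 9 rose and 2 fell (median 2.22), and the summed level was 466 and 1353 CPM in the Mll2 EpiSC libraries, 180 and 157 CPM in the Bod1L ones, 46.0 and 75.4 CPM in the Setd1a ones and 47.4 to 204 CPM in 2i. T, the Brachyury factor of the primitive streak, held 113 and 635 CPM in the Mll2 EpiSC libraries, 1.61 to 14.9 CPM in the 4 others and 5.47 to 19.3 CPM (median 6.95) in 2i. It was not called in the comparison (1.13 ± 1.17, edgeR adjusted p = 0.455). The T value was 0.41 and 0.37 without 2i Mll2 replicates 1 and 2, 1.86 without EpiSC Bod1L replicate 2 and 0.74 without EpiSC Mll2 replicate 2. As the average of the 3 line effects in a fit with 6 groups, T was called (1.62, edgeR adjusted p = 0.0407). Foxa2, a forkhead factor of endoderm and axial mesoderm, ran from 0.0499 to 0.174 CPM (median 0.137) in 2i and from 0.192 to 83.3 CPM (median 6.29) in EpiSC libraries and rose by 5.81 ± 1.29, with 34.4 and 83.3 CPM in the Mll2 line. Without that line the call was lost (edgeR adjusted p = 0.0612).

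Cer1, a secreted antagonist of Nodal and BMP made in anterior endoderm, had no count in any 2i library. Its EpiSC levels were 0.192 to 145 CPM, with 33.4 and 145 CPM in the Mll2 line. The mean of the EpiSC libraries was at least 2122-fold higher than the level 3 counts over the 2i group would give. Lhx1, a LIM homeobox factor of the same cells, ran from 0 to 0.346 CPM (median 0.0328) in 2i and from 0.345 to 118 CPM (median 6.00) in EpiSC libraries. It rose by 7.94 ± 1.19. Wnt3, the ligand that starts the primitive streak, ran from 0.547 to 1.97 CPM (median 0.991) in 2i and from 3.24 to 24.0 CPM (median 12.3) in EpiSC libraries and rose by 3.54 ± 0.47 with no overlap. Eomes, a T-box factor of streak and endoderm, rose by 1.15 ± 0.33, and Sox17, an endoderm factor at 78.1 and 68.2 CPM in the Mll2 EpiSC libraries against 0.164 to 5.92 CPM in the others, was not called (2.43 ± 1.36). The Sox17 value was 1.55 and 1.58 without 2i Mll2 replicates 1 and 2 and 1.34 without EpiSC Bod1L replicate 1. Sox17 was called without the Setd1a line (4.38, edgeR adjusted p = 0.0395) and as the average of the 3 line effects in the fit with 6 groups (2.61, edgeR adjusted p = 0.00933).

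Of 16 tested neural genes, 7 rose and 1 fell (median 1.97), and every EpiSC library's sum (310 to 655 CPM) was above the 2i range (68.7 to 143 CPM). Nes, an intermediate filament of neural progenitors that epiblast cells share, ran from 14.5 to 44.3 CPM (median 32.5) in 2i and from 138 to 564 CPM (median 279) in EpiSC libraries. It rose by 3.27 ± 0.40. Sox1, the first neural-plate SRY-box factor, ran from 0.275 to 4.26 CPM (median 1.81) in 2i and from 3.03 to 78.5 CPM (median 26.6) in EpiSC libraries, with 78.5 CPM in Bod1L replicate 1 and 3.03 CPM in Bod1L replicate 2, and rose by 4.30 ± 0.87. Fabp7, a radial glia lipid carrier, had 2 counts in all 2i libraries together and 1929 in the EpiSC libraries, a ratio of 1006 with a 95% counting interval of 278 to 8317.

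Primitive endoderm genes rose in 9 of 18 tested members and fell in 1, with a median of 2.28. The falls numbered 2 without 2i Mll2 replicate 1 or EpiSC Mll2 replicate 1 and 3 without 2i Mll2 replicate 2. The members that rose include basement membrane genes that the epiblast also makes. Col4a1, a type IV collagen chain, ran from 4.81 to 11.9 CPM (median 9.42) in 2i and from 124 to 308 CPM (median 224) in EpiSC libraries and rose by 4.70 ± 0.30 (edgeR adjusted p = 5.85e-06). Lamb1, a laminin chain, ran from 19.7 to 74.6 CPM (median 36.2) in 2i and from 292 to 522 CPM (median 421) in EpiSC libraries. It rose by 3.34 ± 0.30. The lineage's factor Sox17 is described above, and Gata4, its GATA factor, was not called (0.26 ± 0.89). Of 36 tested Hox genes, the positional homeobox clusters, 13 fell and none rose by edgeR, with 3 higher at an unadjusted p under 0.05, 5 rises by DESeq2 and a median of -1.22. Rises were called by edgeR when 2i Mll2 replicate 1 (5), EpiSC Mll2 replicate 1 (1) or EpiSC Mll2 replicate 2 (3) was left out.

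Trophoblast genes fell in 4 of 11 tested members and rose in 1, or in 2 without 2i Bod1L replicate 1 (median -0.19). Cardiac genes rose in 1 of 11 (9.09%, against 23.6% of all genes) and fell in 2 (18.2%, against 21.7%). Their median was 0.26, and the falls numbered 1 without EpiSC Mll2 replicate 2. Endothelial and blood genes rose in 4 of 10 (40.0%, against 23.6% of all genes) and fell in 2 (20.0%, against 21.7%). Their median was 1.08, and the falls numbered 1 without either EpiSC Mll2 library. The endothelial member Flt1, a VEGF receptor, ran from 0.275 to 0.557 CPM (median 0.305) in 2i and from 10.5 to 291 CPM (median 32.4) in EpiSC libraries, with 190 and 291 CPM in the Mll2 line, and rose by 7.13 ± 0.72. Runx1, a blood stem cell factor, ran from 0.458 to 1.58 CPM (median 0.504) in 2i and from 2.50 to 18.9 CPM (median 10.3) in EpiSC libraries. It rose by 3.87 ± 0.44. Embryonic haemoglobin genes Hba-x and Hbb-bh1 had no count in any of the 12 libraries.

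**Figure D3:**
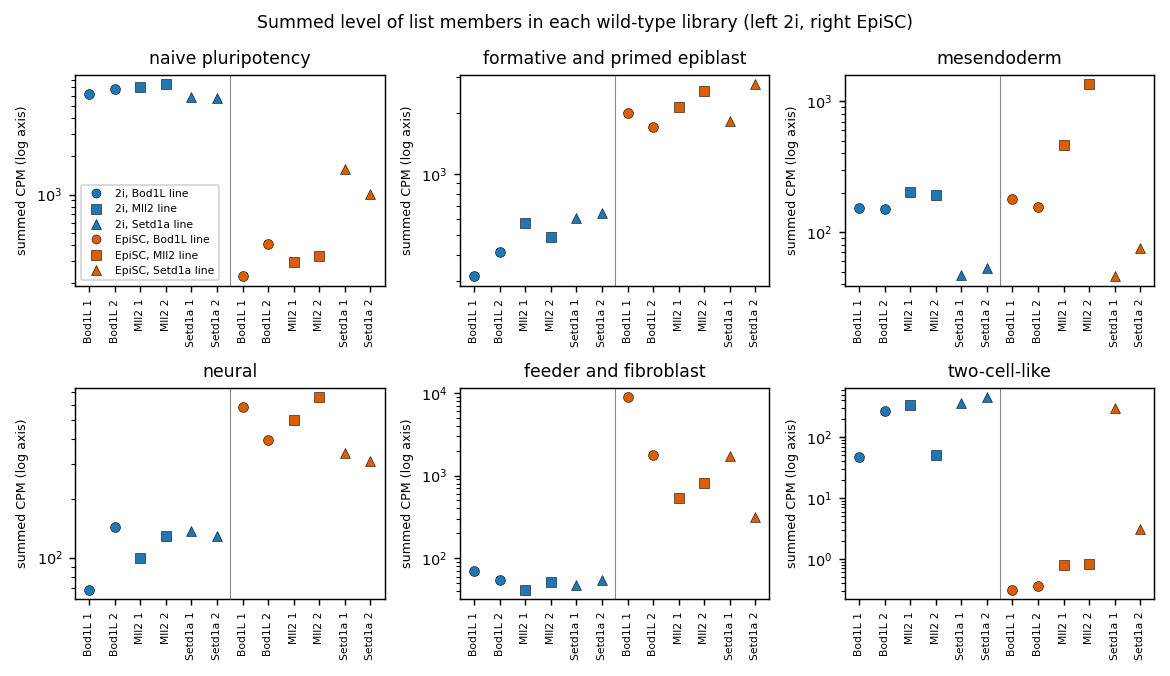
Summed CPM of the members of 6 lists in each wild-type library, on log axes, with 2i libraries on the left and EpiSC libraries on the right of each panel. Naive sums stay higher in both Setd1a EpiSC libraries (1592 and 1013 CPM), mesendoderm sums peak in the Mll2 ones, the fibroblast sum in Bod1L replicate 1 (8803 CPM), and the two-cell-like sum of Setd1a replicate 1 (300 CPM) lies in the 2i range.

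The summed level of the feeder and fibroblast list was higher in every EpiSC library than in any 2i library. Whether this RNA came from other cells in the cultures or from the EpiSC themselves was not tested. Of 20 members, 17 rose and 1 fell (median 7.75), with no overlap for 15, and the sum was 41.8 to 70.1 CPM in 2i, 8803 and 1760 CPM in the Bod1L EpiSC libraries, 533 and 802 CPM in the Mll2 ones, 1703 and 317 CPM in the Setd1a ones and 61.1 to 1048 CPM in FCS. Col3a1, a fibrillar collagen of fibroblasts, held 3291 and 398 CPM in Bod1L, 19.9 and 19.4 CPM in Mll2 and 251 and 30.1 CPM in Setd1a EpiSC libraries, and at most 0.230 CPM in 2i. Col1a1, the chain of the main fibroblast collagen, ran from 0.303 to 2.38 CPM (median 1.19) in 2i and from 26.4 to 1501 CPM (median 202) in EpiSC libraries. Postn, a matrix protein of mesenchyme, ran from 0 to 0.0696 CPM (median 0.0153) in 2i and from 3.42 to 763 CPM (median 51.1) in EpiSC libraries. The part of any feeder cells or fibroblasts in the other EpiSC results was not tested. Without EpiSC Bod1L replicate 1 and 2i Mll2 replicate 2 the list had 16 rises (21.4% of all genes rose). Without the Setd1a line 15 of 18 tested members rose (20.1%). The fall was not called without 2i Bod1L replicate 2, EpiSC Bod1L replicate 1 or EpiSC Mll2 replicate 1, and 2 falls were called without EpiSC Setd1a replicate 1.

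Epithelial genes rose in 12 of 20 members and fell in 1 (median 1.65), and mesenchymal transition genes rose in 10 of 15 tested members (median 1.95). The epithelial fall was not called without 2i Bod1L replicate 2 or 2i Mll2 replicate 1, and 1 mesenchymal fall was called without 2i Mll2 replicate 2 or EpiSC Bod1L replicate 1. Epithelial sums were lowest in Bod1L replicate 1 (562 CPM), the library with the highest fibroblast sum, and 1084 to 4716 CPM in the other EpiSC libraries, beside 851 to 1373 CPM in 2i. Cdh1, the cadherin of epithelia, ran from 275 to 813 CPM (median 497) in 2i and from 46.4 to 937 CPM (median 442) in EpiSC libraries. Its lowest library was again Bod1L replicate 1, and it was not called (-0.32 ± 0.61, or 0.04 without that library). Esrp1, an epithelial splicing factor, ran from 0.250 to 1.71 CPM (median 0.704) in 2i and from 14.2 to 116 CPM (median 84.3) in EpiSC libraries and rose by 6.59 ± 0.71. The keratin Krt18 ran from 1.06 to 5.84 CPM (median 3.55) in 2i and from 36.6 to 541 CPM (median 113) in EpiSC libraries. It rose by 5.37 ± 0.73. Cdh2, the cadherin of mesenchyme and neural cells, ran from 2.84 to 13.1 CPM (median 8.24) in 2i and from 22.3 to 166 CPM (median 55.3) in EpiSC libraries and rose by 3.06 ± 0.50. The integrin chain Itgb1 ran from 152 to 365 CPM (median 186) in 2i and from 537 to 1305 CPM (median 766) in EpiSC libraries. It rose by 1.95 ± 0.26.

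Of 18 DNA methylation genes 5 rose (27.8%) and 5 fell (27.8%), with a median of 0.02. These shares are near those of all genes (23.6% higher and 21.7% lower). Besides Dnmt3b, the enzyme Dnmt3a ran from 58.2 to 222 CPM (median 68.1) in 2i and from 134 to 1030 CPM (median 236) in EpiSC libraries. It rose by 1.63 ± 0.26. The maintenance enzyme Dnmt1 ran from 285 to 470 CPM (median 443) in 2i and from 194 to 333 CPM (median 234) in EpiSC libraries and fell by 0.73 ± 0.15. Its recruiter Uhrf1 ran from 404 to 669 CPM (median 512) in 2i and from 104 to 317 CPM (median 206) in EpiSC libraries. It fell by 1.27 ± 0.25. The oxidases divided: Tet2 ran from 227 to 751 CPM (median 370) in 2i and from 30.0 to 113 CPM (median 55.0) in EpiSC libraries. It fell by 2.82 ± 0.41. Tet1 fell by 1.32 ± 0.22, and Tet3 rose by 1.43 ± 0.31. Dnmt3l, the catalytically inactive partner of the de novo enzymes, was at 134 and 78.2 CPM in Setd1a EpiSC libraries, 0 to 1.92 CPM in the 4 others, 1.35 to 18.7 CPM (median 8.71) in 2i and 171 to 549 CPM (median 344) in FCS, and was not called (-2.13 ± 1.51). The Dnmt3l value was -1.36 without either EpiSC Bod1L library. Dnmt3l was called without the Setd1a line (-4.46, edgeR adjusted p = 0.0166) and by DESeq2 (-2.86, adjusted p = 0.0371). It was also called as the average of the 3 line effects in the fit with 6 groups (-2.60, edgeR adjusted p = 0.00965).

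Polycomb genes, whose products repress developmental genes, fell in 13 of 28 members and rose in 3 (median -0.28). Suz12, a core subunit of the H3K27 methyltransferase complex, ran from 517 to 1437 CPM (median 720) in 2i and from 202 to 503 CPM (median 221) in EpiSC libraries. It fell by 1.57 ± 0.18. Mtf2, an accessory subunit that brings the complex to CpG islands, ran from 609 to 1111 CPM (median 726) in 2i and from 120 to 299 CPM (median 160) in EpiSC libraries and fell by 2.09 ± 0.22. Its paralog Phf19 ran from 0.922 to 5.29 CPM (median 2.17) in 2i and from 6.33 to 20.9 CPM (median 15.2) in EpiSC libraries. It rose by 2.56 ± 0.37. Epop, an accessory protein of ESC, fell by 2.58 ± 0.42, from 164 to 654 CPM (median 229) to 21.4 to 86.6 CPM (median 37.5).

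The H3K4 methyltransferase family, called COMPASS, includes the 3 genes targeted in these lines. Of 20 tested members 8 fell and none rose by edgeR, with 2 higher at an unadjusted p under 0.05 and 0 by DESeq2, and the median was -0.07. Rises were called when 2i Mll2 replicate 1 (2), 2i Mll2 replicate 2 (1) or EpiSC Setd1a replicate 2 (1) was left out. Bod1l, a subunit of the SETD1A complex, ran from 199 to 263 CPM (median 207) in 2i and from 166 to 227 CPM (median 216) in EpiSC libraries. Setd1a, the catalytic subunit, ran from 37.7 to 55.3 CPM (median 51.3) in 2i and from 36.6 to 48.1 CPM (median 41.0) in EpiSC libraries. Kmt2b, the related enzyme MLL2, ran from 89.6 to 193 CPM (median 173) in 2i and from 137 to 164 CPM (median 147) in EpiSC libraries. The ranges of both states overlapped for all 3 genes and none was called (edgeR adjusted p = 0.734, 0.196 and 0.732); without 2i Mll2 replicate 2, Setd1a was called at -0.31 (edgeR adjusted p = 0.0341). Shared subunits fell: Ash2l ran from 353 to 438 CPM (median 413) in 2i and from 120 to 223 CPM (median 154) in EpiSC libraries. It fell by 1.32 ± 0.16. Dpy30 ran from 73.1 to 129 CPM (median 94.1) in 2i and from 40.7 to 58.6 CPM (median 47.8) in EpiSC libraries. It fell by 0.95 ± 0.16. Paxip1, a subunit of the MLL3 and MLL4 complexes, fell by 1.02 ± 0.15.

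Germline genes, silenced by promoter methylation in most cells, were on in 2i and low in most EpiSC libraries. Of 27 members, 13 fell and 2 rose, with a median of -3.41. The sum was 208 to 959 CPM in 2i, 461 and 126 CPM in the Setd1a EpiSC libraries and 67.7 to 160 CPM in the 4 others. Dazl, an RNA-binding protein of germ cells, ran from 27.6 to 268 CPM (median 196) in 2i and from 0.0308 to 27.9 CPM (median 0.0856) in EpiSC libraries. The Bod1L and Mll2 EpiSC libraries were at or under 0.117 CPM, the Setd1a ones at 27.9 and 2.34 CPM, 2i Mll2 replicate 1 (27.6 CPM) was far below the other 2i libraries, and Dazl fell by 7.92 ± 1.41. Without EpiSC Bod1L replicate 1 and 2i Mll2 replicate 2 the falls numbered 8 (18.5% of all genes fell), and without the Setd1a line 18 (17.7%).

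The letters CACGTG, an E-box that MAX and its partners bind, were searched on both strands of the 250 bases before the start site (most upstream start) in RefSeq promoters of GRCm38.p6. They stood in 12 of the 25 germline genes with a promoter (48.0%) and in 1854 of 27025 genes of the table (6.86%). In the other lists the share ran from 0% (FGF and ERK response genes among them) to 26.7% (DNA methylation genes). It was 25.0% for cholesterol synthesis, 22.7% for Polycomb and 20.0% for naive genes, so shares above 6.86% are not particular to germline genes. Of the 12 genes with the letters, 4 fell and none rose (median -3.33), and of the 13 without them 8 fell and 2 rose (median -3.41), and the difference was not tested. The motif was chosen after values were seen. The 4 promoters that hold it in genes that fell are shown, with each CACGTG in capitals and up to 57 bases on either side. They are Hormad1 (chr3:95559563-95559676, plus strand, motifs from positions -57 and -20), Mael (chr1:166238905-166238994, minus strand, -223), Stk31 (chr6:49395427-49395538, plus strand, -55) and Sycp1 (chr3:102936132-102936251, minus strand, -94), with positions counted back from the start site.
Hormad1: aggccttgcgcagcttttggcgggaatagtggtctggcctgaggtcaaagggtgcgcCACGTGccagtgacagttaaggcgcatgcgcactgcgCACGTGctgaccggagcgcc
Mael: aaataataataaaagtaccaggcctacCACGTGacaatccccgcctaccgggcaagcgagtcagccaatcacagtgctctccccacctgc
Stk31: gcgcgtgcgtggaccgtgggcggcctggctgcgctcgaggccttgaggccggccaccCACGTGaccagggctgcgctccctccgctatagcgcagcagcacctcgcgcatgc
Sycp1: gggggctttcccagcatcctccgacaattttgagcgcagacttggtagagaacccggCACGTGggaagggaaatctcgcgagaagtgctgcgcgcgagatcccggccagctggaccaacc

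Hormad1, a protein of the meiotic chromosome axis whose window holds the letters at both positions above, ran from 23.2 to 81.8 CPM (median 35.7) in 2i and from 0 to 17.1 CPM (median 0.0146) in EpiSC libraries. In EpiSC, 3 libraries had no count, the Setd1a ones had 17.1 and 2.61 CPM, and the gene fell by 6.82 ± 1.39. Rpl10l, a ribosomal protein retrogene of the testis whose reads could be shared with Rpl10, ran from 25.4 to 206 CPM (median 73.7) in 2i and from 0 to 7.05 CPM (median 0.102) in EpiSC libraries. Tdrkh, a Tudor protein of the piRNA pathway, went the other way: it ran from 0.726 to 3.48 CPM (median 1.73) in 2i and from 10.7 to 85.0 CPM (median 44.3) in EpiSC libraries. It rose by 4.44 ± 0.59.

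Of 9 primordial germ cell factors 6 fell and 1 rose (median -2.65). Tfap2c, an AP-2 factor, ran from 67.2 to 133 CPM (median 110) in 2i and from 4.81 to 35.2 CPM (median 15.3) in EpiSC libraries. It fell by 2.77 ± 0.33. Kit, the receptor for stem cell factor, ran from 237 to 553 CPM (median 282) in 2i and from 4.75 to 100 CPM (median 61.1) in EpiSC libraries. It fell by 2.65 ± 0.60. Genes of two-cell-like cells, a rare transient state in ESC cultures, fell in 11 of 15 tested members (median -4.12), and in none were the groups free of overlap. The sum was 46.9 to 449 CPM in 2i, 300 CPM in EpiSC Setd1a replicate 1 and 0.313 to 3.15 CPM in the other 5 EpiSC libraries. Zscan4a, of a cluster of near-identical genes among which reads could be shared, held 102 CPM in that library and at most 1.31 CPM in the other EpiSC libraries. The count of 11 moved with single libraries and lines. It was 7 without 2i Bod1L replicate 2 or 2i Mll2 replicate 1, 5 without either EpiSC Bod1L library, 3 without either EpiSC Mll2 library, and 3 without EpiSC Bod1L replicate 1 and 2i Mll2 replicate 2. It was 15 by DESeq2 and without EpiSC Setd1a replicate 1, and 14 of 14 tested without the Setd1a line. By edgeR it was 0 without the Bod1L line (3 at an unadjusted p under 0.05) and 0 without the Mll2 line (1 at an unadjusted p under 0.05), with DESeq2 not run on those libraries.

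Cholesterol synthesis genes rose in 17 of 23 members and fell in 1 (median 0.89). Hmgcs1, which makes HMG-CoA for the pathway, ran from 274 to 520 CPM (median 415) in 2i and from 721 to 1415 CPM (median 839) in EpiSC libraries. It rose by 1.28 ± 0.22. Lss, the lanosterol synthase, ran from 53.9 to 103 CPM (median 75.3) in 2i and from 135 to 412 CPM (median 269) in EpiSC libraries and rose by 1.85 ± 0.25, with no overlap for either gene. Ebp, a sterol isomerase late in the pathway, was the member that fell, from 50.6 to 108 CPM (median 77.2) to 12.7 to 30.7 CPM (median 18.0) (a fall of 1.88 ± 0.20, edgeR adjusted p = 6.38e-05).

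Glycolysis genes rose in 10 of 24 members and fell in 2, or 4 without 2i Mll2 replicate 2, with a median of 0.53. Slc16a3, a lactate exporter, ran from 6.04 to 35.3 CPM (median 21.2) in 2i and from 105 to 276 CPM (median 160) in EpiSC libraries. It rose by 3.28 ± 0.39. Pkm, pyruvate kinase, ran from 967 to 1713 CPM (median 1518) in 2i and from 1761 to 2979 CPM (median 1847) in EpiSC libraries. It rose by 0.58 ± 0.17. Pfkfb3, which makes the activator of phosphofructokinase, rose by 2.16 ± 0.68. That Pfkfb3 call was lost without 2i Bod1L replicate 2 (edgeR adjusted p = 0.0577), 2i Mll2 replicate 1 (0.0624) or 2i Mll2 replicate 2 (0.0685) and under the replicate block (0.0511). The hexokinase Hk1 fell by 1.23 ± 0.22 and the phosphofructokinase Pfkp by 1.77 ± 0.24.

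Nuclear cytochrome c oxidase genes fell in 3 of 14 tested members (21.4%, against 21.7% of all genes), with a median of -0.49. The falls numbered 7 without EpiSC Setd1a replicate 2, in which short genes stood high. They numbered 2 of 15, with a median of -0.23, without EpiSC Bod1L replicate 1 and 2i Mll2 replicate 2. Short genes stood high in 2i Mll2 replicate 2 too. In the comparison of all 12 libraries none rose by edgeR or DESeq2, or at an unadjusted p under 0.05. Cox5a, one such subunit, ran from 218 to 744 CPM (median 244) in 2i and from 81.6 to 127 CPM (median 110) in EpiSC libraries and fell by 1.44 ± 0.27, with 744 CPM in 2i Mll2 replicate 2 and at most 260 CPM in the other 2i libraries. Mitochondrially encoded genes fell in 4 of 13 (30.8%, against 21.7% of all genes), with a median of -0.47. The falls numbered 8 without 2i Mll2 replicate 2 or without EpiSC Setd1a replicate 1. Again none rose by either tool or at an unadjusted p under 0.05. The complex I subunit mt-Nd1 ran from 2099 to 2854 CPM (median 2533) in 2i and from 785 to 1831 CPM (median 1167) in EpiSC libraries. It fell by 0.98 ± 0.20.

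Serine, glycine and threonine genes rose in 3 of 14 members (21.4%, against 23.6% of all genes) and fell in 5 (35.7%, against 21.7%). The median was 0.14. The rises numbered 1 without 2i Bod1L replicate 1, either 2i Mll2 library, EpiSC Bod1L replicate 1, EpiSC Mll2 replicate 1 or EpiSC Setd1a replicate 2, and 0 without 2i Bod1L replicate 2. Amt, of the glycine cleavage system that follows Tdh, ran from 133 to 231 CPM (median 150) in 2i and from 32.3 to 91.9 CPM (median 41.3) in EpiSC libraries. It fell by 1.75 ± 0.26. Phgdh, the first enzyme of serine synthesis, rose by 1.07 ± 0.35, a call lost without either 2i Bod1L library (edgeR adjusted p = 0.0778 and 0.0660) or EpiSC Setd1a replicate 2 (0.0767) and under the replicate block (0.0555).

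Of 18 regulators of the G1 phase 6 rose (33.3%, against 23.6% of all genes) and 4 fell (22.2%, against 21.7%). The median was -0.20. Ccnd2, a D-type cyclin, ran from 2.79 to 12.6 CPM (median 5.45) in 2i and from 94.0 to 489 CPM (median 189) in EpiSC libraries and rose by 5.14 ± 0.44 (edgeR adjusted p = 1.96e-05). Its relative Ccnd1 ran from 80.1 to 208 CPM (median 125) in 2i and from 90.2 to 210 CPM (median 153) in EpiSC libraries and was not called (0.32 ± 0.27). Ccne1, the E-type cyclin of the G1-S transition, fell by 0.82 ± 0.23, with 140 and 86.9 CPM in the Setd1a EpiSC libraries and 38.4 to 61.6 CPM in the 4 others.

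The strongest rises among all genes included those of 2 matrix genes. Thbs1, a matrix glycoprotein that TGF-beta induces, ran from 0.247 to 0.634 CPM (median 0.438) in 2i and from 124 to 859 CPM (median 315) in EpiSC libraries and rose by 9.71 ± 0.63 (edgeR adjusted p = 6.11e-06). Tnc, another matrix glycoprotein, ran from 0.0250 to 0.242 CPM (median 0.105) in 2i and from 57.1 to 1457 CPM (median 225) in EpiSC libraries and rose by 11.78 ± 0.96. Its highest levels were in Setd1a replicate 1 and Bod1L replicate 2, whose fibroblast sums were 1703 and 1760 CPM. Those sums lay between 8803 CPM in Bod1L replicate 1 and 317 to 802 CPM in the other EpiSC libraries. The part of fibroblasts in the Tnc level was not tested. Of abundant genes, Tpm1, a tropomyosin, ran from 45.3 to 94.4 CPM (median 55.2) in 2i and from 354 to 1863 CPM (median 833) in EpiSC libraries. It rose by 3.81 ± 0.38. Flna, an actin cross-linker, ran from 148 to 539 CPM (median 353) in 2i and from 990 to 2149 CPM (median 1328) in EpiSC libraries. It rose by 2.03 ± 0.32. Gja1, the gap junction protein connexin, rose by 4.04 ± 0.63.

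The strongest falls included genes outside the lists. Aqp3, a water and glycerol channel, ran from 231 to 652 CPM (median 427) in 2i and from 0.139 to 23.8 CPM (median 0.615) in EpiSC libraries. It fell by 8.35 ± 1.30. Dpp4, a surface peptidase, ran from 111 to 255 CPM (median 142) in 2i and from 0 to 11.3 CPM (median 0.0983) in EpiSC libraries. It fell by 8.22 ± 1.27. Calcoco2, an autophagy receptor, ran from 127 to 547 CPM (median 271) in 2i and from 0 to 21.8 CPM (median 0.217) in EpiSC libraries. It fell by 8.56 ± 1.37. In all 3 genes the Setd1a EpiSC libraries were the highest of the EpiSC group. Bhmt, a methyltransferase of the methionine cycle, had 4438 counts in the 2i libraries and 1 in the EpiSC libraries, a ratio of 4253 with a 95% counting interval of 763 to 168017. Abundant genes that fell included Jade1, a subunit of a histone acetyltransferase complex, from 481 to 909 CPM (median 635) to 73.2 to 365 CPM (median 84.5), and Zfp980, a zinc-finger gene, from 472 to 1239 CPM (median 925) to 2.02 to 361 CPM (median 8.76).

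Fitted within each line, 2 EpiSC against 2 2i libraries with a spread shared by 6 groups, 5490 of 21375 genes were called in Bod1L (25.7%), 6786 in Mll2 (31.7%) and 1775 in Setd1a (8.30%), and 1346 genes were called in all 3 lines in the same direction. The naive list fell in 22 of 24 members in Bod1L (12.3% of all genes fell), in 22 in Mll2 (15.3%) and in 9 in Setd1a (3.31%), with medians of -5.72, -6.54 and -2.12. The formative and primed list rose in 16, 14 and 12 of 22 members, against 13.4%, 16.4% and 4.99% of all genes, with medians of 3.06, 2.83 and 3.00. The counts depend on single libraries, since each group has 2. Bod1L gave 3110 and 2835 without 2i replicates 1 and 2 and 3478 without EpiSC replicate 1. Mll2 gave 3808 without 2i replicate 2 and 3199 and 3483 without EpiSC replicates 1 and 2. Setd1a gave 71 and 109 without 2i replicates 1 and 2 and 843 without EpiSC replicate 2.

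**Figure D4:**
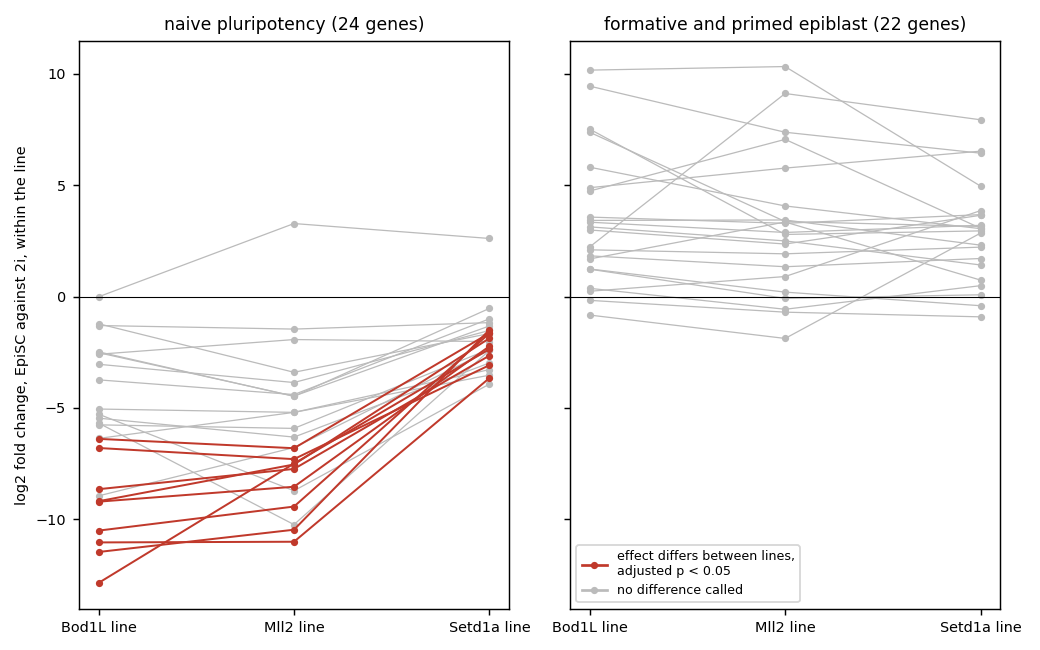
Log2 fold change (EpiSC over 2i) of each naive gene (left) and each formative or primed gene (right) within the 3 lines, with 1 line per gene. Red marks the 9 naive genes whose effect differed between lines. Naive medians move from -5.72 and -6.54 to -2.12 in the Setd1a line while formative medians stay at 3.06, 2.83 and 3.00.

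The state effect itself differed between lines for 165 of 21375 genes (0.772%), and in 141 of these the effect was smallest in size in the Setd1a line. Of the 24 naive genes 9 were called, with Esrrb and Tbx3 at the lowest adjusted p. For Esrrb the log2 fold changes were -9.19, -7.54 and -1.87 in Bod1L, Mll2 and Setd1a (edgeR adjusted p of the difference = 0.00295), and for Tbx3 -8.65, -7.74 and -2.65 (edgeR adjusted p = 0.00295). None of the 22 formative and primed genes was called for a difference by edgeR, with 8 at an unadjusted p under 0.05 and 6 called by DESeq2. Single libraries moved the count of 165 by more than 1.5 times: it was 71 and 86 without 2i Bod1L replicates 1 and 2, 320 and 96 without 2i Mll2 replicates 1 and 2, 8 and 9 without 2i Setd1a replicates 1 and 2, 306 without EpiSC Bod1L replicate 2 and 277 without EpiSC Setd1a replicate 2.

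Of other genes with a line difference, Mylpf fell least in the Setd1a line, as Esrrb and Tbx3 did. Tmprss2 and Parm1 showed another pattern, with their highest EpiSC levels in the Mll2 line. Mylpf, a muscle myosin light chain, ran from 102 to 369 CPM (median 163) in 2i and from 1.18 to 34.3 CPM (median 1.62) in EpiSC libraries, with 34.3 and 27.6 CPM in the Setd1a EpiSC libraries and 1.18 to 1.64 CPM in the 4 others. Tmprss2, a surface protease of epithelia, held 78.2 and 50.6 CPM in the Mll2 EpiSC libraries, at most 0.796 CPM in the 4 others and 0.666 to 2.42 CPM (median 1.14) in 2i. Parm1, a mucin-like surface protein, held 97.6 and 77.9 CPM in the Mll2 EpiSC libraries and 6.10 to 13.4 CPM in the others, and its log2 fold changes were -2.52, 5.24 and 1.34 in Bod1L, Mll2 and Setd1a.

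The same contrast in the knockout libraries of these lines, which share no library with the wild type, called 9706 of 20726 genes (46.8%). Of the 9228 wild-type calls, 9011 were tested there, 8993 (99.8%) had the same sign and 7557 (83.9%) were called in the same direction, which is 77.9% of the knockout calls. None was called in the opposite direction by edgeR or DESeq2, nor at an unadjusted p under 0.05. In the knockout libraries, 21 of 24 naive genes fell (22.4% of all genes fell), 15 of 22 formative and primed genes rose (24.5% of all genes rose) and 15 of 21 FGF and ERK genes rose. Genotype and tamoxifen differ from the wild type, and 11 of these 12 libraries divide by state in library number too.

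**Figure D5:**
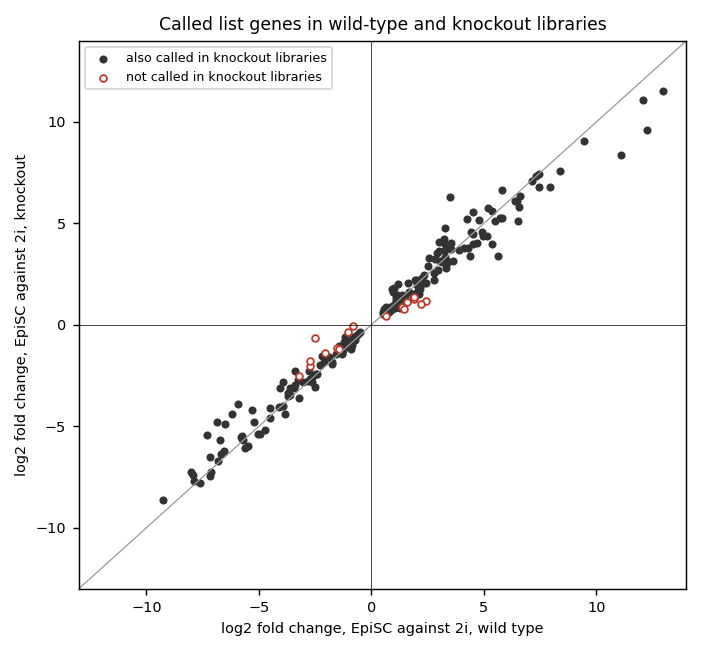
Log2 fold change (EpiSC over 2i) in wild-type libraries (horizontal) and in knockout libraries (vertical) for the 201 called genes of the lists that may be named, with the line of equal values in grey. Filled points (184) were called in the knockout libraries too, open points were not, and all 201 have the same sign.

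One 2i library, Setd1a knockout replicate 1, carries a later number, as all EpiSC libraries do. Set against it alone, the 2 Setd1a knockout EpiSC libraries gave 1271 calls among 24748 genes (5.14%) with the spread taken from all 36 libraries, so that the lone library is assumed to vary like the other groups. Of the 9228 wild-type calls, 8630 (93.5%) had the same sign in that comparison and 1165 (12.6%) were called in the same direction, which is 91.7% of its calls. Among those called there, Dusp6 rose by 5.65, Spry4 by 7.75, Mtf2 fell by 1.52, Pcsk6 by 3.75 and Cdx1 by 5.60 log2 units. None was called in the opposite direction by edgeR, with 13 at an unadjusted p under 0.05. The naive list had 10 falls (2.71% of all genes fell), and the formative and primed list 4 rises (2.42% of all genes rose).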

How the data were processed

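RNA from the cultures was poly(A)-selected and rRNA-depleted, fragmented and made into strand-specific libraries, per the labels' protocols. The authors deposited a table of whole-number read counts per gene. Per the file headers, reads were counted with featureCounts 1.5.2 on Ensembl 87 gene models, with strand setting 2 and a minimum mapping quality of 1. The aligner GSNAP and the builds GRCm38 and mm10 stand in the submitters' processing notes. The table has 49763 rows. The 92 spike-in rows, with 0 reads, were removed, and 259 of the 49671 genes have no symbol (names from GENCODE M21). The 12 libraries held 25200955 to 40591108 counts.

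Counts were tested in edgeR 4.0.16 (R 4.3.3) with the quasi-likelihood test after TMM scaling and filterByExpr (minimum count 10), with state and line as terms and Benjamini-Hochberg adjustment at 0.05. Within-line effects, their average over the 3 lines and line differences came from a fit with 6 groups. In that fit, differences in the state effect between lines are not part of the spread. DESeq2 1.42.0 was an alternative. The edgeR code was tested on simulated data. Summaries used pandas 2.3.3 and numpy 2.4.6, and plots matplotlib 3.10.9 with a pseudocount of 0.5 on log2 CPM. Counting intervals (95%) and the floor of 3 counts cover counting error only.

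The members and gene lists were chosen with earlier results of these data known. Genes that may be named are all members of 8 lists on pluripotency, signalling and DNA methylation, and, of each other list, the 3 called members with the highest and the 3 with the lowest log2 fold change and the 3 of highest mean CPM. They are also the 12 strongest changes each way (mean of at least 5 CPM, groups not overlapping), the 8 most abundant past a log2 fold change of 2 each way, the 3 targeted genes, the 8 clearest line differences, and genes standing out by 1 library or by line. Other named genes were chosen after their values were seen. Alternatives were other scalings and filters, DESeq2, a replicate block, each library or line left out, and a library-number term. Leaving out EpiSC Bod1L replicate 1 together with 2i Mll2 replicate 2, or with the Setd1a line, was added after values were seen. Knockout FCS libraries entered only fits over all 36 libraries.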

Additional observations from a re-analysis of the deposited data

Results flagged for a closer look

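Dixon's test on log2(CPM + 0.5) was run on 324 groups of 6 libraries (133 genes and 29 list sums in each state). In 28 of these groups, 1 library stood apart from the other 5. Some genes could be named because 1 library stood apart, and the 6 libraries are 3 lines with 2 replicates each. The count of 28 can therefore not be set against the test's nominal rate of about 1 in 20. The ranges below are those of the 5 other libraries of the same state, and 11 of the 28 concern 2i Mll2 replicate 2, in which short genes stood high and long genes low. In 2i Mll2 replicate 2 these were Sox2 at 708 CPM against 352 to 435 CPM, Klf2 at 579 CPM against 136 to 218 CPM and Dppa5a at 1192 CPM against 443 to 630 CPM. The same library had Tcf15 at 9.62 CPM against 2.93 to 3.80 CPM, Dnmt1 at 285 CPM against 428 to 470 CPM and Cox5a at 744 CPM against 218 to 260 CPM. The same library had Col4a1 at 4.81 CPM against 8.98 to 11.9 CPM, Bod1l at 263 CPM against 199 to 213 CPM and Kmt2b at 89.6 CPM against 146 to 193 CPM. The same library had the DNA methylation sum at 1908 CPM against 2475 to 2835 CPM and the cytochrome c oxidase sum at 3542 CPM against 1248 to 1730 CPM. In 2i Mll2 replicate 1 these were Lin28a at 86.0 CPM against 27.3 to 41.5 CPM, Zfp42 at 94.1 CPM against 300 to 526 CPM and Dazl at 27.6 CPM against 149 to 268 CPM. The same library had Gja1 at 183 CPM against 14.8 to 27.1 CPM and the germline sum at 208 CPM against 586 to 959 CPM. In 2i Bod1L replicate 1 these were Otx2 at 5.86 CPM against 0.0916 to 0.757 CPM and Dnmt3b at 28.4 CPM against 83.2 to 104 CPM. In EpiSC Mll2 replicate 2 these were Sp5 at 33.0 CPM against 0.461 to 2.65 CPM and the Wnt target sum at 1137 CPM against 269 to 443 CPM. In EpiSC Setd1a replicate 1 these were Suz12 at 503 CPM against 202 to 263 CPM, Rpl10l at 7.05 CPM against 0 to 0.614 CPM and Zscan4a at 102 CPM against 0.0348 to 1.31 CPM. The same library had the two-cell-like sum at 300 CPM against 0.313 to 3.15 CPM. In EpiSC Setd1a replicate 2 these were Pkm at 2979 CPM against 1761 to 1880 CPM, Col4a1 at 124 CPM against 221 to 308 CPM and the cytochrome c oxidase sum at 1572 CPM against 929 to 1111 CPM. In EpiSC Bod1L replicate 2 these were Kit at 4.75 CPM against 36.4 to 100 CPM.

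The change from 2i to EpiSC differed between the lines for 23 of the 133 genes described (edgeR interaction test, p adjusted over all genes). Each line had 2 libraries in each state. Over all genes tested the share was 0.772% (165 of 21375). Genes could be named because of this same difference, so the 23 and their split by line give no rate for the genes described. The values that follow are log2 fold changes in the Bod1L, Mll2 and Setd1a lines, with the adjusted edgeR p of the difference. In 22 genes the effect was smallest in size in the Setd1a line. These include Dppa2 -8.21, -9.72 and -2.17 (adjusted p = 0.0448), Gdf3 -2.63, -7.38 and -1.05 (adjusted p = 0.0124) and Klf4 -6.39, -6.81 and -1.64 (adjusted p = 0.0359). Next came Esrrb -9.19, -7.54 and -1.87 (adjusted p = 0.00295), Tbx3 -8.65, -7.74 and -2.65 (adjusted p = 0.00295) and Zfp42 -12.86, -7.50 and -2.36 (adjusted p = 0.0229). There followed Prdm14 -11.04, -11.01 and -3.66 (adjusted p = 0.0155), Dppa5a -10.51, -9.43 and -1.65 (adjusted p = 0.0152) and Tcl1 -11.47, -10.47 and -1.49 (adjusted p = 0.00860). Also in this group were Pecam1 -6.80, -7.30 and -3.08 (adjusted p = 0.0206), Tdh -9.21, -8.54 and -2.23 (adjusted p = 0.0318) and Spry2 1.11, -1.57 and 0.02 (adjusted p = 0.0404). Next came Cdx1 -13.17, -11.04 and -6.46 (adjusted p = 0.00429), Epop -2.14, -4.21 and -1.49 (adjusted p = 0.0466) and Pfkfb3 2.42, 4.15 and -0.22 (adjusted p = 0.0387). There followed Hormad1 -12.88, -10.65 and -2.73 (adjusted p = 0.0459), Aqp3 -10.10, -10.27 and -3.90 (adjusted p = 0.0155) and Dpp4 -10.88, -11.84 and -4.33 (adjusted p = 0.0206). Also in this group were Zfp980 -7.75, -6.48 and -1.97 (adjusted p = 0.0203), Parm1 -2.52, 5.24 and 1.34 (adjusted p = 0.00295) and Tmprss2 -3.93, 5.18 and -0.54 (adjusted p = 0.00429). Next came Mylpf -6.54, -7.62 and -2.26 (adjusted p = 0.00356). The remaining gene, Spry4, had log2 fold changes of 3.06, 4.22 and 9.41 (adjusted p = 0.0495). Hormad1 had no count in either Bod1L EpiSC library, so its fitted value there depends on the prior count of the fit and is no bound.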

How the results depend on the processing

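Of the 114 called genes described, all 114 kept their sign under each of the 26 alternatives that tested them (mt-Nd1 has no value without mitochondrially encoded genes). The call was kept by 108 under every one but the library-number term and the settings that left out a line, alone or with EpiSC Bod1L replicate 1. With the library-number term 49 were still called. Calls were lost for 10 genes without the Bod1L line (Gdf3, Dppa5a, Tcl1, Jak2, Pfkfb3, Pkm, mt-Nd1, Phgdh, Ccne1 and Zscan4a), for 16 without the Mll2 line (Esrrb, Zfp42, Dppa5a, Tcl1, Bmp4, Fgf4, Otx2, Etv4, Etv5, Jak2, Foxa2, Eomes, Pfkfb3, Ccne1, Rpl10l and Zscan4a) and for 5 without the Setd1a line (Bmp4, Fgf4, Etv4, Etv5 and Phgdh). Without both the Setd1a line and EpiSC Bod1L replicate 1, calls were lost for 10 genes (Bmp4, Etv4, Etv5, Sp5, Eomes, Tet3, Pkm, Phgdh, Kit and Sox1). Of genes not called, Dnmt3l, T, Sox17 and Parm1 were called in the fit over all 36 libraries (edgeR adjusted p = 0.00228, 0.0201, 0.00187 and 8.69e-05), and Dnmt3l and Sox17 without a filter on low counts (0.0134 and 0.00250). The 9228 genes called became 1027 with a term for library-number range over all 36 libraries, where 1 library alone has 2i medium and a later number, and 5887 without the Bod1L line. They stayed between 6266 and 12342 under the other scalings, filters, tools and left-out lines, and between 8155 (without 2i Bod1L replicate 2) and 9539 (without EpiSC Setd1a replicate 1) with 1 library left out. The share of calls that were higher in EpiSC, 52.1%, was 49.9% with RLE scaling and 50.1% without mitochondrially encoded genes. The 165 line differences became 1416 by DESeq2, and ran from 8 (without 2i Setd1a replicate 1) to 320 (without 2i Mll2 replicate 1). Within lines, leaving out 1 library gave 2835 to 4040 calls in Bod1L, 3199 to 7404 in Mll2 and 71 to 1411 in Setd1a, where a group of 1 library is assumed to vary like the others, and DESeq2 gave 3275 in Setd1a. The causes were not tested, beyond the smaller numbers of libraries.

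With the replicate number as a block, 8601 wild-type genes and 73 line differences were called (replicate block). The deviations of same-numbered 2i and EpiSC libraries correlated across genes at r = -0.02, 0.03 and 0.14 in Bod1L, Mll2 and Setd1a. In the Setd1a line Ddx3y and Eif2s3y also differ between replicates 1 and 2 in both states, and the labels do not say what a replicate number marks. In the knockout libraries the replicate block gave 8854 calls beside 9706. Low counts limit the genes that are near 0 in 1 state: bounds or counting intervals are given for some of them, and fitted fold changes of the others rest on few counts in that state.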

Other observations

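Several groups outside the lists' leading members gave values not described above. T-cell receptor complex gene Cd3d had 3038 counts in the 2i libraries and 2 in the EpiSC libraries, a ratio of 1456 with a 95% counting interval of 403 to 12025. Htr5a, a serotonin receptor gene, had 1600 counts in 2i and 3 in EpiSC libraries (ratio 511, 175 to 2481). In the other direction Klhl4, a Kelch-like protein gene, had 1 count in 2i and 4936 in EpiSC libraries (ratio 5151, 924 to 203489), and Gpr37, an orphan receptor gene, 1 and 1612 (ratio 1682, 301 to 66483). These genes were among the strongest changes by the rule for named genes.

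The Y-linked genes Ddx3y and Eif2s3y differed between replicates of 1 line as labelled. In the Setd1a line, Ddx3y was at 0 CPM in 2i replicate 1 and 66.3 CPM in 2i replicate 2, and at 0 and 21.0 CPM in EpiSC replicates 1 and 2. In the Mll2 line it was at 0.115 and 0.185 CPM in 2i and at 3.85 and 0.0875 CPM in EpiSC replicates 1 and 2, and in the Bod1L line at 133 and 143 CPM in 2i and 106 and 102 CPM in EpiSC libraries. Eif2s3y was at 0.0305 and 49.3 CPM in the Setd1a 2i replicates and at 0.0284 and 22.5 CPM in the EpiSC ones. Xist, the RNA of the inactive X chromosome, was at 92.7 CPM in EpiSC Mll2 replicate 1 and at 0.273 to 0.824 CPM in the other 5 EpiSC libraries. These genes were chosen after their values were seen.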
